A study of Mus musculus with 24 samples.

Results

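The comparison described here is that of MSC constructs in hosts given diphtheria toxin, named (dep)BCP+MSC, with MSC constructs in hosts not given the toxin, named BCP+MSC. Its members are 8 of the 24 samples of the study, 4 in each group, chosen by the group names in the sample labels. Bulk RNA was sequenced from whole constructs collected 2 weeks after implantation. Both groups were hosts of the Foxp3-DTR/eGFP strain, of both sexes and 8 to 9 weeks old, with 2 constructs of the same group per mouse in pockets under the skin of the back. Each construct was built on biphasic calcium phosphate (BCP), a granular ceramic that stands in for bone, and carried 800000 mesenchymal stromal cells (MSC) grown from the bone marrow of C57BL/6J donors. The hosts of (dep)BCP+MSC received 50 µg/kg of the toxin into the abdomen on 2 consecutive days after surgery and again on days 4, 6, 8 and 10. In this strain the receptor for the toxin (DTR) and the green protein eGFP are made from the Foxp3 gene, so the toxin acts on cells that express Foxp3, the regulatory T cells (Treg). A group with the toxin but without depletion was not analysed here, so the loss of Treg, the toxin itself and the injections cannot be told apart. The study describes the Treg depletion as an experiment of its own. It does not state whether toxin-treated and untreated hosts were operated on and sampled together, so such a difference cannot be told apart either. The remaining samples were cell-free granules (BCP), MSC primed with resolvin E1 (BCP+MSC+RvE1), MSC cocultured with Treg (BCP+MSC+Treg), and (dep)BCP+MSC+RvE1inj, MSC constructs in toxin-treated hosts that also had 1 µM of resolvin E1 injected locally each day, all in the same host strain.

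Treg restrain other T cells and myeloid cells and also take part in tissue repair, and their removal in Foxp3-DTR mice is known to release inflammation in many organs. Around an implant, fibroblasts deposit collagen and other matrix proteins, macrophages fuse on the ceramic surface, and MSC or host cells may form bone. A construct under the skin of the back also lies beside a thin sheet of skeletal muscle, so RNA of muscle, fat or skin can be collected with it. The comparison asks how the gene expression of an MSC construct differs when the host's Treg are targeted.

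The 4 libraries of (dep)BCP+MSC carry the numbers 1, 2, 4 and 5 and those of BCP+MSC the numbers 1 to 4, and values are given in these orders. Expression is in CPM, the usual scaling of a count to the library total, here after TMM normalization. Total counts ran from 8482701 in (dep)BCP+MSC 1 to 85519916 in (dep)BCP+MSC 4, a 10.1-fold difference. On these totals, before TMM normalization, 3 counts, taken as the floor of detection, were 0.354 CPM in the first and 0.0351 CPM in the second. This floor covers counting error only. Replicates of a group correlated with Pearson's r between 0.853 and 0.970 over the log2 CPM of genes with a positive mean log2 CPM over all samples. No 2 libraries were alike. Averaged over 31 genes of skeletal muscle, log2 CPM was 9.01, 8.80, 8.60 and 8.96 in (dep)BCP+MSC and 8.89, 3.46, 8.31 and 8.77 in BCP+MSC, which leaves BCP+MSC 2 with little muscle RNA. For 19 skin and hair genes the average was 3.64 in (dep)BCP+MSC 1 and between -2.24 and 0.10 in the other 7 libraries. Y-linked genes lay above Xist in 2 of 4 (dep)BCP+MSC libraries and in 1 of 4 BCP+MSC libraries. For these reasons counts are given below also without (dep)BCP+MSC 1, without BCP+MSC 2, or without both libraries. In bulk RNA, fewer cells of a type and less RNA per cell cannot be told apart.

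Foxp3, the transcription factor that defines Treg and the gene that carries the toxin receptor, did not separate the groups. Its level was 1.69, 0.891, 0.976 and 0.378 CPM in (dep)BCP+MSC (0.985 ± 0.542, SD, n = 4) and 1.04, 1.19, 0.629 and 0.876 CPM in BCP+MSC (0.933 ± 0.24, SD, n = 4). These levels rest on 17 to 83 counts per library, and the groups overlap. The log2 fold change, toxin over no toxin, was 0.04 with a standard error of 0.51 and a 95% interval of -0.96 to 1.03 (edgeR, adjusted p = 0.989; exact permutation test, p = 0.914), an interval that spans changes of up to about 2-fold in either direction. The gene lies on GRCm38 at chrX:7579676-7595243 and shares its span with Flicr, Ccdc22 and Gm36995, whose reads could not be separated by strand. The last injection of toxin was on day 10, and constructs were not sampled at that time here. The study reports a reduction of Treg after the toxin by flow cytometry of lymph nodes and spleen. It checked these organs at the start and again 2 weeks later, the time at which constructs were collected. The flow cytometry is a count of cells in other organs, and the values above are RNA of whole constructs.

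Of 25 genes of a Treg signature, 4 were lower and 1 was higher in (dep)BCP+MSC, and the median log2 fold change was 0.11, against -0.04 over all genes tested. Here and below, higher and lower genes, or genes called, are those with an adjusted p under 0.05 in edgeR's quasi-likelihood test over 30564 genes, and 1.75% of all genes tested were called higher and 2.17% lower. The lower members were Lrrc32, which presents latent TGF-beta and is also made by endothelial and stromal cells, Nrp1, the inhibitory receptor Klrg1, and Ebi3, a cytokine subunit. Lrrc32 stood at 39.2, 21.3, 44.5 and 25.5 CPM against 112, 116, 98.2 and 96.5 CPM, with no overlap between the groups (log2 fold change -1.70 ± 0.27, SE, adjusted p = 0.00103). Tigit, an inhibitory receptor of activated and regulatory T cells, was the higher member, at 2.19, 5.44, 5.6 and 7.33 CPM against 1.31, 0.656, 1.14 and 2.21 CPM (1.96 ± 0.55, adjusted p = 0.0454), and was called in 1 of the 8 fits that each left out 1 library. The other defining genes were not called. Il2ra, the high-affinity IL-2 receptor chain, had a log2 fold change of -0.40, Ikzf2 of 0.15 and Tnfrsf18 of -0.28. Ctla4, the checkpoint receptor of Treg and activated T cells, stood at 8.37, 7.44, 12.9 and 16.6 CPM against 4.45, 2.79, 7.91 and 3.73 CPM (1.27 ± 0.48, adjusted p = 0.135), with an overlap of 1 library on either side. Without (dep)BCP+MSC 1 and BCP+MSC 2, 1 of the 25 was called, lower. At an unadjusted p under 0.05, 5 of the 25 were higher and 5 lower, and DESeq2, the alternative fit, called 4 higher and 5 lower. In a second toxin comparison in other samples, described below, 5 were called higher and 1 lower, with a median of 0.58.

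Over all genes, 534 were higher and 664 were lower in (dep)BCP+MSC. At an unadjusted p under 0.05 these counts were 2951 and 3257, or 9.66% and 10.7% of the genes tested. With a log2 fold change beyond 1 in addition to the adjusted p, 409 genes were higher and 550 lower. The counts depended on which libraries entered the fit. Leaving out (dep)BCP+MSC 1 left 200 and 267 genes, leaving out (dep)BCP+MSC 2 left 216 and 270, and leaving out both (dep)BCP+MSC 1 and BCP+MSC 2 left 111 and 174. The called genes kept their direction within the sexes. Of the 534 higher genes, all 534 were higher on average in the 2 against 3 libraries with more Xist and 513 (96.1%) in the 2 against 1 libraries with more Y-linked counts, and of the 664 lower genes, 664 and 662 were lower. These shares describe genes chosen on the same 8 libraries and are no test of them.

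**Figure D1:**
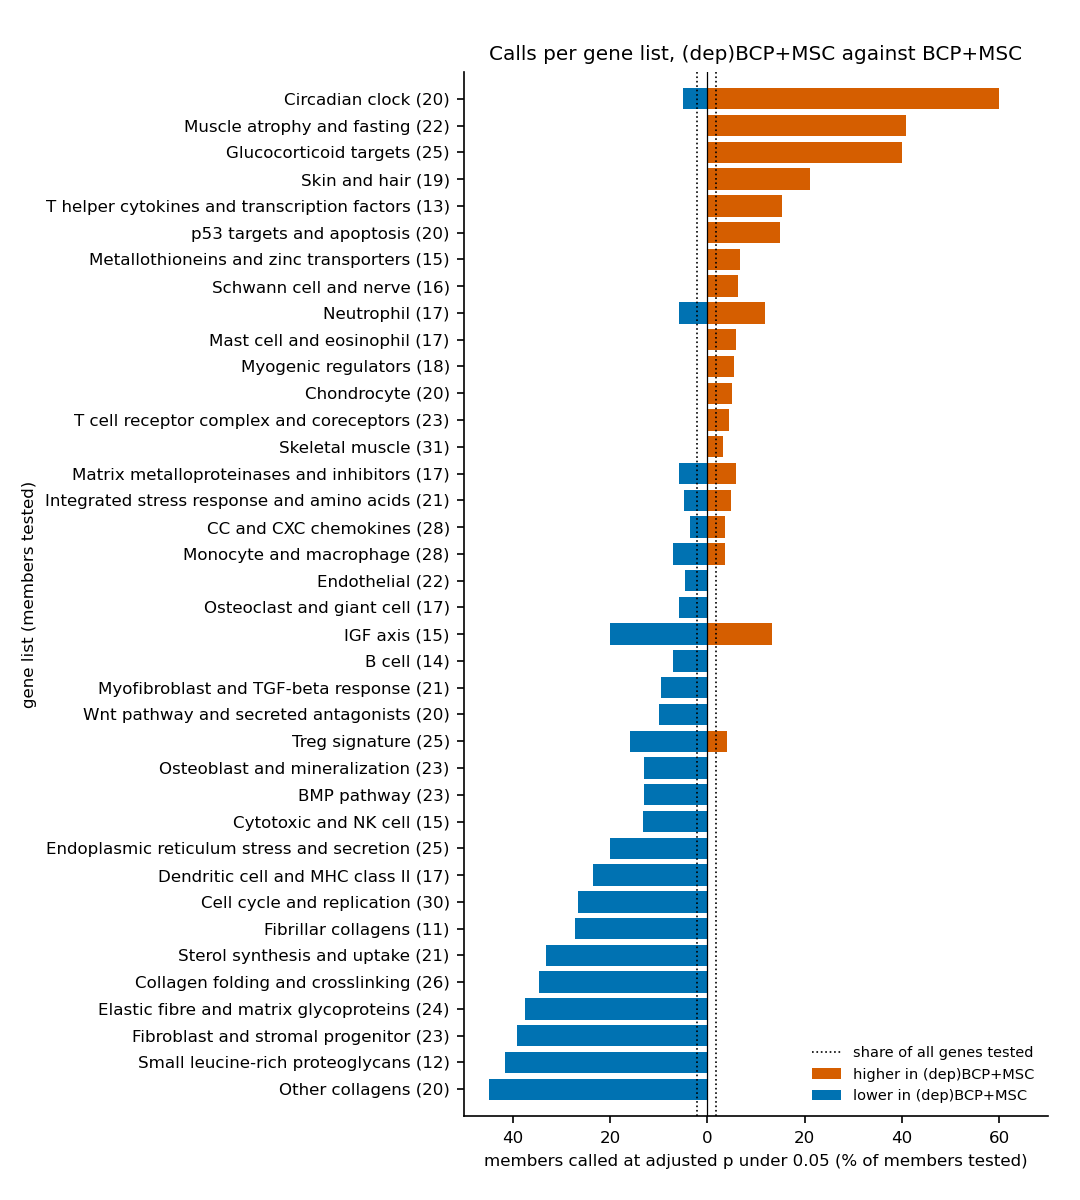
Percent of the tested members called higher or lower in (dep)BCP+MSC against BCP+MSC (horizontal axis) for the 38 gene lists with at least 1 called member (vertical axis), with dotted lines at the share of all genes tested. Clock, atrophy and glucocorticoid lists reach 60%, 40.9% and 40% higher, and the lists of other collagens, small leucine-rich proteoglycans and fibroblast genes 39.1% to 45% lower, against 1.75% and 2.17% of all genes.

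The 12 higher genes with the smallest p-values were led by Fkbp5, and 4 of them belong to lists described below, Fkbp5 to the glucocorticoid targets, Per2 to the clock, and Fbxo32 and Bnip3 to muscle atrophy. Fkbp5, a chaperone partner that dampens the glucocorticoid receptor and is itself induced by it, stood at 569, 840.1, 332 and 205 CPM against 39.4, 39.4, 38.2 and 64 CPM. Every toxin library was thus at least 3 times the highest library without toxin, and the ratio of the means was 10.8 (log2 fold change 3.43 ± 0.33, adjusted p = 5.11e-06). Its gene lies at chr17:28399095-28517524 on GRCm38. In the cell-free BCP constructs, which had no toxin either, it lay between 41.4 and 56.7 CPM. Among the others, Arrdc2, an arrestin-domain protein, stood at 183, 177, 54.3 and 53.9 CPM against 10.9 to 17.5 CPM. Depp1, a target of the FOXO factors, stood at 154, 164, 35.7 and 67.1 CPM against 3.19 to 9.72 CPM. Cd38, an ectoenzyme that consumes NAD, stood at 78.1, 147, 77.2 and 100.1 CPM against 13.7 to 45 CPM. Kif28, a kinesin-like gene, had 26, 95, 86 and 48 counts against 0, 1, 1 and 3 counts, at or under the floor of 3 counts in every BCP+MSC library. The remaining genes were Bnip3, Ccdc136, Galnt15, Ktn1, Fam107a, Fbxo32 and Per2. All 12 were called in each of the 8 fits that left out a library, with log2 fold changes of 1.66 to 6.20, and each reached the smallest p that the exact permutation test allows with 4 against 4 (p = 0.0286). Libraries 1 and 2 of the toxin group were both higher than libraries 4 and 5 in all of them but Cd38.

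Of the 12 lower genes with the smallest p-values, Fmod, Col15a1, Col8a2 and Mfap5 encode matrix proteins, and Fap and Sfrp4 belong to the lists of myofibroblast and Wnt genes. Sfrp4, a secreted antagonist of Wnt signalling, stood at 0.698, 2.26, 3.9 and 3.3 CPM against 26, 40.4, 38.2 and 21.2 CPM, a ratio of the means of 12.4 in favour of BCP+MSC (log2 fold change -3.57 ± 0.39, adjusted p = 3.47e-05). Its gene lies at chr13:19623175-19632821. Spon2, a secreted matrix protein, stood at 1.89, 2.63, 5.27 and 7.98 CPM against 58.3, 95.3, 91 and 31.8 CPM (-3.93 ± 0.48). Fmod, the collagen-binding proteoglycan fibromodulin, stood at 1.79, 2.55, 5.08 and 5.02 CPM against 21.4 to 30.2 CPM. In each of these the highest toxin library lay far below the lowest library without toxin. Fap, a surface protease of activated fibroblasts, stood at 6.38 to 8.94 CPM in the 4 toxin libraries against 26.6 to 41.9 CPM. Cx3cr1, the fractalkine receptor of monocytes and macrophages, stood at 2.69, 1.25, 2.63 and 2.71 CPM against 26.1, 43.9, 27.5 and 19.4 CPM (-3.66 ± 0.48, adjusted p = 0.00017). The annotated span of Cx3cr1 holds several other genes, among them Xirp1, which was higher in the toxin group, so its count is uncertain. The rest were B4galt2, Col15a1, Rtl1, Arsi, C1qtnf6, Col8a2 and Mfap5. All 12 were called in each of the 8 fits that left out a library, with log2 fold changes of -3.93 to -1.41 and an exact permutation p of 0.0286 each.

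**Figure D2:**
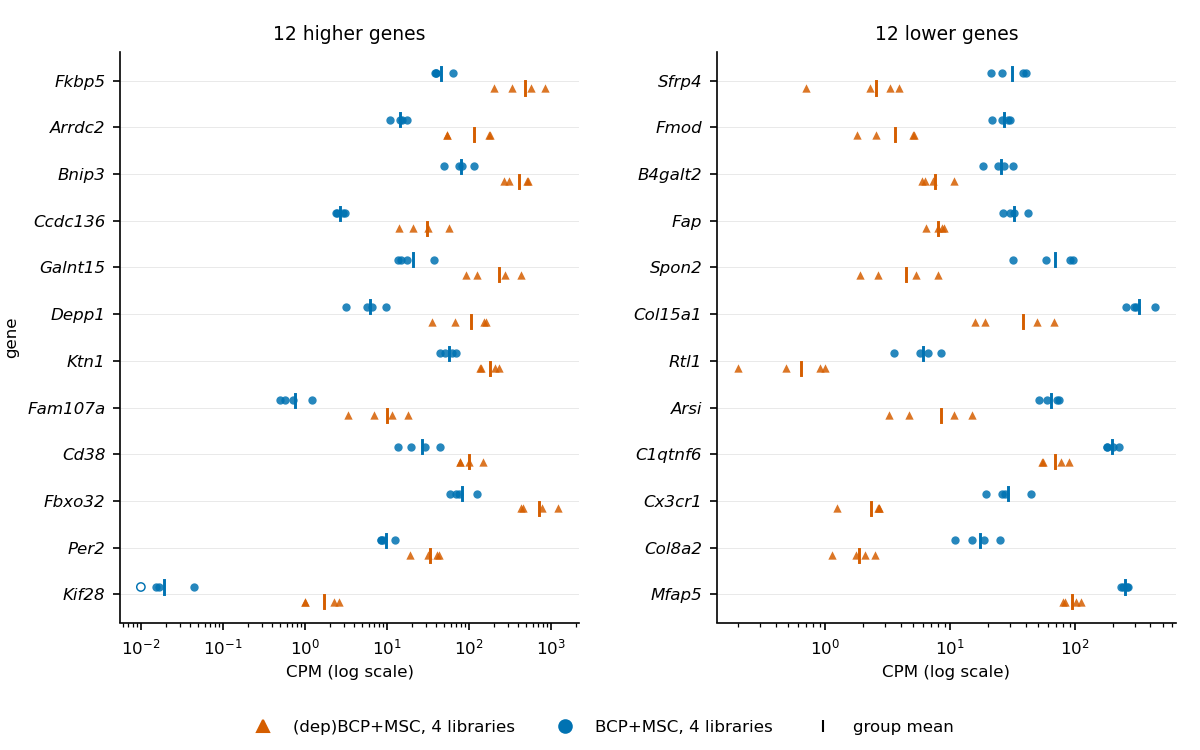
CPM on a log axis (horizontal) in each of the 4 (dep)BCP+MSC and 4 BCP+MSC libraries for the 12 higher and 12 lower protein-coding genes with the smallest p-values (vertical), with open symbols for values below the axis. The 2 groups do not overlap in any of the 24 genes, which the choice of the genes required.

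A second toxin comparison in other samples was set beside the first. It compared the 4 (dep)BCP+MSC+RvE1inj libraries with the 8 libraries of BCP+MSC+RvE1 and BCP+MSC+Treg, and shares no sample with the first. It differs from the first by the injected resolvin E1 and by the priming of the MSC. Its toxin-treated hosts belong to the same depletion experiment as those of the first, so a difference between experiments would enter both comparisons. The sexes differ as well. Y-linked genes lay above Xist in 4 of 4 (dep)BCP+MSC+RvE1inj, 4 of 4 BCP+MSC+RvE1 and 3 of 4 BCP+MSC+Treg libraries. In the second comparison 326 genes were called higher and 236 lower, 1.07% and 0.772% of the genes tested. Of the 534 genes higher in the first comparison, 141 were also called higher in the second, 26.4% of the first list and 43.3% of the second. Of the 664 lower genes, 174 were called lower, 26.2% of the first list and 73.7% of the second. The direction was the same for 521 (97.6%) of the higher and 652 (98.2%) of the lower genes, while the medians were smaller, 0.79 against 1.62 for the higher and -0.88 against -1.46 for the lower genes. Of the 534 higher genes, 0 were called lower in the second comparison by edgeR, with 1 at an unadjusted p under 0.05 and 1 of 1490 by DESeq2. Of the 664 lower genes, 0 were called higher by edgeR, 0 at an unadjusted p under 0.05 and 0 of 1405 by DESeq2. All of the 24 genes with the smallest p-values were called in the same direction in the second comparison. Fkbp5 had a log2 fold change of 2.91 (adjusted p = 5.75e-07), Per2 of 1.29, Sfrp4 of -2.35 and Cx3cr1 of -2.90. A test of the difference of the 2 comparisons called 0 genes in edgeR, with 583 and 794 genes at an unadjusted p under 0.05, and 1 gene in DESeq2, Gm37435, an uncharacterised transcript at 0.147 to 1.6 CPM in (dep)BCP+MSC and 0 to 0.0117 CPM in (dep)BCP+MSC+RvE1inj. The genes were chosen on the first comparison, whose medians are raised by that choice, so the smaller medians show no difference between the comparisons.

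**Figure D3:**
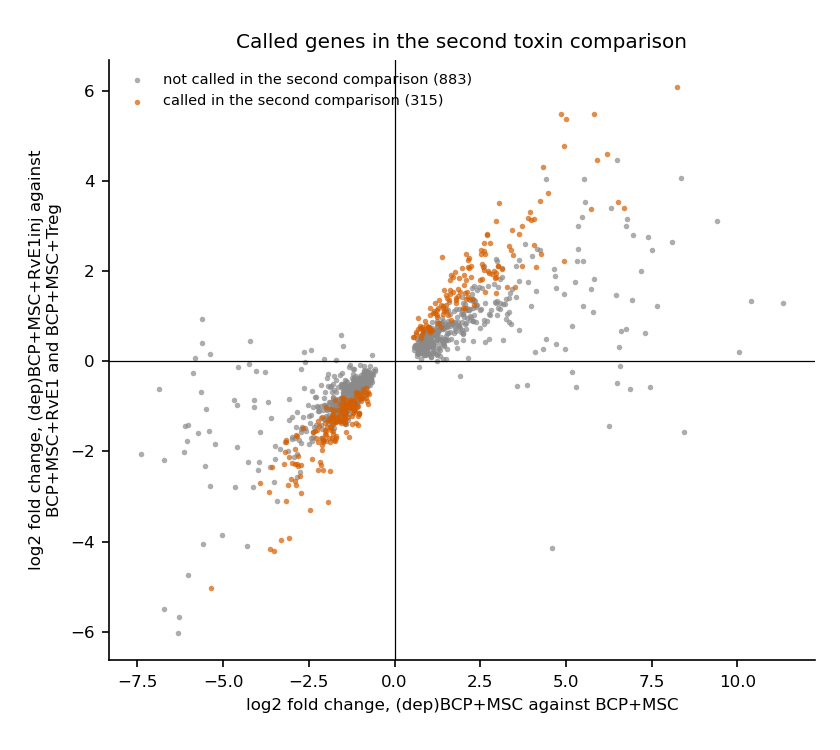
Log2 fold change in (dep)BCP+MSC against BCP+MSC (horizontal axis) and in (dep)BCP+MSC+RvE1inj against BCP+MSC+RvE1 and BCP+MSC+Treg (vertical axis) for the 1198 genes called in the first, with the 315 genes called in the second marked apart from the other 883. The direction is the same in both comparisons for 1173 of the genes.

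Glucocorticoids are steroid hormones of the adrenal gland that act through the nuclear receptor Nr3c1 and induce a well-known set of genes in many tissues. Of 25 such targets, 10 were higher in (dep)BCP+MSC and the other 15 were not called, with a median log2 fold change of 1.60. Beside Fkbp5, the higher members were Tsc22d3, which encodes the anti-inflammatory protein GILZ, Per1, Zbtb16, Cdkn1a, Pik3r1, Lcn2, Hif3a, Ddit4, an inhibitor of mTORC1, and Klf15, a metabolic transcription factor. Tsc22d3 stood at 419.7, 567, 309.8 and 350.3 CPM against 108, 80.9, 174 and 117 CPM (1.78 ± 0.33, adjusted p = 0.00269). Klf15 stood at 123, 84.4, 30.6 and 30.3 CPM against 5.4, 4.61, 5.96 and 12.2 CPM (3.25 ± 0.71, adjusted p = 0.0128). Neither gene overlapped between the groups. Zbtb16, a zinc finger factor, stood at 169, 79.7, 45.1 and 16.6 CPM against 4.12, 6.03, 3.24 and 24.7 CPM, with an overlap through (dep)BCP+MSC 5 and BCP+MSC 4. The receptor gene Nr3c1 stood at 71.5 to 101 CPM against 47.7 to 112 CPM (0.05 ± 0.27, adjusted p = 0.957). Other known targets were not called, with log2 fold changes of 0.42 for Sgk1, 0.87 for Dusp1, 0.08 for Angptl4 and -0.60 for Anxa1. The mean log2 CPM of the list was 7.13, 7.55, 6.59 and 6.44 in the toxin libraries, against 5.23 to 5.71 in BCP+MSC and 5.09 to 5.72 in the 12 other libraries without toxin, and 6.35 to 6.59 in (dep)BCP+MSC+RvE1inj. Called members numbered 8 without BCP+MSC 2, 5 without (dep)BCP+MSC 1 and 2 without both, and in the second comparison 4. Hormone levels and the hour of collection were not analysed here.

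The circadian clock is a loop in which Clock or Npas2 with Arntl (BMAL1) drives genes with an E-box in their promoter, among them the Per and Cry genes that in turn inhibit the drivers, while the Nr1d repressors and the Ror activators act on Arntl. Of 20 clock genes, 12 were higher and 1 was lower in (dep)BCP+MSC, with a median log2 fold change of 1.25. The E-box is the motif CACGTG, and the promoters of 3 members that were higher are shown because they carry it, each as 250 bases before and 50 after the start of transcription, 5′ to 3′ on the strand of the gene, with the motif in capitals. The sequences are from RefSeq on GRCm38.p6, for Per1 at chr11:69098699-69098998 on the plus strand, for Cry1 at chr10:85185005-85185304 on the minus strand and for Ciart at chr3:95882179-95882478 on the minus strand.
Per1: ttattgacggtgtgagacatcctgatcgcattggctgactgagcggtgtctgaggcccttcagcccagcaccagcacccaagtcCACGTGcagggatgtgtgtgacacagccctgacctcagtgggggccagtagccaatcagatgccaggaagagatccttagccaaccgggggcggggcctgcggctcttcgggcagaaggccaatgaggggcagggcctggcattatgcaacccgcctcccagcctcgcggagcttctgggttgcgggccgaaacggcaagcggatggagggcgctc
Cry1: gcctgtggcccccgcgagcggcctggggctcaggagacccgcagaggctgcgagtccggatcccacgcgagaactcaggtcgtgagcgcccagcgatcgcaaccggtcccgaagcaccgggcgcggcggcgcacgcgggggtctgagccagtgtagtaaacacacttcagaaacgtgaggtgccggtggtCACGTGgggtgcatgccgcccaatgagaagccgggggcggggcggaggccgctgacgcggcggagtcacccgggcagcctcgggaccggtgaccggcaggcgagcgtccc
Ciart: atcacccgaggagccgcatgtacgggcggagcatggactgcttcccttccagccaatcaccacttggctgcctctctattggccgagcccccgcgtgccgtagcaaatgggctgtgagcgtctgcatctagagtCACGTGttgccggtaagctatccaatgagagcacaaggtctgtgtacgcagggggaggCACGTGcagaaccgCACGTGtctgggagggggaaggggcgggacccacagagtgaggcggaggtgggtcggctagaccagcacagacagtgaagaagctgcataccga
The motif reads the same on both strands. Of 17 clock genes with a promoter in the table, 5 had it (29.4%), and so had 4 of the 11 called among them (36.4%), Tef in addition to those shown. The search did not cover every chromosome. It found the motif for 8.09% of all 27025 genes with a promoter searched and for 9.93% of the 16117 among the genes tested. A gene counts as having it when any of its promoters does. Per1 has a second promoter in the table, at chr11:69099902-69100201, without the motif. A match is a description of these letters and not a site of binding.

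Of the inhibitory arm, Per1, with 1 motif in the promoter shown, stood at 396, 336, 154 and 115 CPM against 42, 36.9, 87.8 and 40.8 CPM (2.27 ± 0.41, adjusted p = 0.00271). Per2 stood at 42.7, 41.2, 31.4 and 19.3 CPM against 8.38, 12.7, 9.09 and 8.44 CPM (1.80 ± 0.26, adjusted p = 0.000457). Cry1, also with 1 motif, stood at 19.7, 27.2, 19.9 and 21.4 CPM against 7.91, 9.33, 7.12 and 15.4 CPM (1.15 ± 0.25, adjusted p = 0.00884). None of these 3 genes overlapped between the groups. Ciart, a further repressor of the loop with 3 motifs, stood at 19.1, 20.3, 7.69 and 6.3 CPM against 2.39 to 3.9 CPM (2.00 ± 0.38), and Per3 (1.35) and Cry2 (2.29) were higher as well. Of the genes acting on Arntl, Nr1d1 (1.67), Nr1d2 (1.13) and Rora (1.96) were higher, as were the output factor Tef (1.56) and the protease Usp2 (2.21). Of the drivers only Npas2 was called. Arntl stood at 43.3, 25.8, 22.5 and 16.1 CPM against 17.9 to 31.1 CPM (0.16 ± 0.26, adjusted p = 0.785), Clock had a log2 fold change of 0.07, and Npas2 was lower, at 10.5, 7.85, 13.2 and 5.69 CPM against 21.4, 23.6, 14.6 and 20.7 CPM (-1.11 ± 0.28, adjusted p = 0.024). The cell-free BCP constructs give another reference without toxin. In them Cry1 lay between 20.5 and 24.8 CPM and Per2 between 15.5 and 31.4 CPM, overlapping the toxin libraries, whereas Per1 lay between 28.6 and 105 CPM and Ciart between 1.98 and 3.71 CPM, below them. Called higher members numbered 10 without BCP+MSC 2, 8 without (dep)BCP+MSC 1 and 4 without both. In the second comparison 6 were higher and 1 was lower.

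Wasting muscle breaks down its proteins through the ubiquitin ligases Fbxo32 (atrogin-1) and Trim63 (MuRF1), under the control of FOXO factors, in fasting, disuse and steroid excess. Of 22 genes of muscle atrophy and fasting, 9 were higher and the other 13 were not called, with a median log2 fold change of 1.41. Fbxo32 stood at 1231, 780.4, 459 and 431 CPM against 76.2, 68.8, 59.3 and 127 CPM (3.13 ± 0.44, adjusted p = 0.000457). Trim63 stood at 2354, 3527, 405 and 459 CPM against 31.6, 0.641, 29.4 and 64.5 CPM (5.74 ± 1.14, adjusted p = 0.00721), with its lowest value in BCP+MSC 2, the library with little muscle RNA. Without that library and (dep)BCP+MSC 1 the log2 fold change of Trim63 was 5.12 and that of Fbxo32 was 2.67, and both were still called. The other higher members were Fbxo31 (2.97), Foxo1 (1.62), Klf15 (3.25), Ddit4 (2.36), Sesn1 (1.45), Pdk4, a brake on glucose oxidation (3.16), and Bnip3, a receptor for the removal of mitochondria (2.32). Foxo3 (0.26) and the autophagy gene Gabarapl1 (0.64) were not called. Called members numbered 8 without BCP+MSC 2, 6 without (dep)BCP+MSC 1, 5 without both and 9 with the muscle score as a covariate. The lists of glucocorticoid targets, clock and atrophy share 4 genes (Angptl4, Ddit4, Klf15 and Per1), and of their 63 distinct genes 28 were higher.

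Few genes of the contractile machinery passed the test. Of 31 skeletal muscle genes, 1 was called higher, Xirp1, an actin-binding protein of injured muscle (3.35), with a median log2 fold change of 0.92 that was 0.54 without BCP+MSC 2, and 6 were higher both at an unadjusted p under 0.05 and by DESeq2. Of 18 myogenic regulators, 1 was called higher, the acetylcholine receptor subunit Chrnb1 (1.26), with a median of 1.98, while 10 were higher at an unadjusted p under 0.05 and 9 by DESeq2. The call of Chrnb1 was lost without BCP+MSC 2, without (dep)BCP+MSC 1 and without both, and that of Xirp1 without both. Myog, which drives the differentiation of myoblasts, stood at 23.5, 7.06, 2.98 and 14.3 CPM against 2.51, 0.275, 2 and 0.861 CPM (3.08 ± 0.91, adjusted p = 0.0603), and embryonic myosin, Myh3, at 28.6, 2.65, 2.89 and 14.7 CPM against 0.832 to 1.66 CPM (3.33 ± 0.98, adjusted p = 0.0603). Both genes were separated between the groups without passing the threshold.

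Within the toxin group, libraries 1 and 2 stood apart from libraries 4 and 5 in many lists. The clock list had mean log2 CPM of 6.01 and 5.79 in libraries 1 and 2, 5.36 and 5.08 in libraries 4 and 5, and 4.31 to 4.62 in BCP+MSC. For 30 cell cycle genes the values were 2.19 and 2.36, 3.45 and 3.78, and 3.77 to 4.44. For 17 genes of dendritic cells and MHC class II they were 2.93 and 3.13, 4.56 and 5.04, and 5.14 to 5.68. In these 3 lists libraries 4 and 5 lay between libraries 1 and 2 and the BCP+MSC libraries, with library 5 above the lowest BCP+MSC library for the cell cycle. The split follows the sex-linked genes, since Xist was the higher in libraries 1 and 2 and the Y-linked genes in libraries 4 and 5, and whether it is due to sex was not tested.

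**Figure D4:**
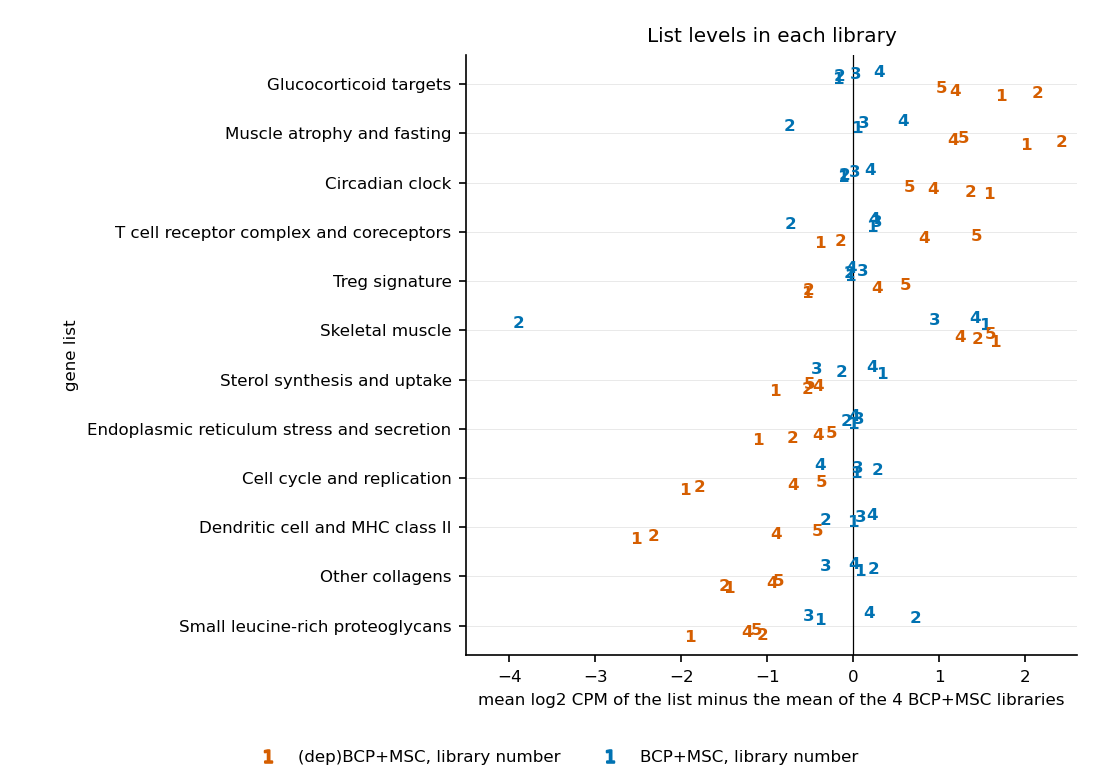
Mean log2 CPM of the tested members of 12 gene lists (vertical axis) in each library, less the mean of the 4 BCP+MSC libraries (horizontal axis), with the library numbers written at the points. The 4 toxin libraries lie above all BCP+MSC libraries for glucocorticoid targets, clock and atrophy, and libraries 1 and 2 differ from libraries 4 and 5 in the same direction in these 3 lists.

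Collagens and the proteins that fold, crosslink and bind them were lower in part in (dep)BCP+MSC. Col1a1 stood at 2386, 1243, 4053 and 2123 CPM against 6805, 10072, 5277 and 6440 CPM, and its 2 groups did not overlap (-1.54 ± 0.45), but its adjusted p of 0.0503 in edgeR missed the threshold narrowly, and ran from 0.0257 to 0.172 with single libraries left out. Col1a2 was lower (-1.64 ± 0.44, adjusted p = 0.0339) and was called in 2 of the 8 fits that left out a library. Of 11 fibrillar collagens 3 were lower (Col1a2, Col5a3 and Col27a1) and the other 8 were not called, with a median of -1.54. The calls were denser among the other collagens. Of 20 genes 9 were lower, with a median of -1.25, namely Col6a1, Col6a2, Col6a3, Col8a1 (-2.90), Col8a2, Col14a1 (-2.39), Col15a1, Col16a1 and Col18a1. Col15a1, a collagen of basement membrane zones, stood at 19.1, 15.7, 68.1 and 49 CPM against 305, 436, 295 and 257 CPM (-3.09 ± 0.40, adjusted p = 0.000148). Col8a2, a short-chain collagen, stood at 2.09, 1.76, 1.14 and 2.48 CPM against 14.9, 18.6, 11 and 25.2 CPM (-3.23 ± 0.46, adjusted p = 0.000431). The basement membrane genes Col4a1 (-1.05) and Col4a2 (-0.95) and Col12a1 (-0.17) were not called. Without (dep)BCP+MSC 1 and BCP+MSC 2, 0 of 11 fibrillar collagens were called by edgeR, against 7 at an unadjusted p under 0.05 and 7 by DESeq2 with all libraries, while 4 of the 20 other collagens were called.

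Of 26 genes of collagen folding and crosslinking 9 were lower, with a median of -0.92. They span the steps of collagen assembly. Among them were P3h1 and P3h4 of the prolyl hydroxylase family, the P3h1 partner Crtap and the lysyl hydroxylase Plod3. The others were the chaperones Serpinh1 (HSP47) and Fkbp10, the procollagen protease enhancer Pcolce, the lysyl oxidase Loxl1, and Sparc. Serpinh1 stood at 118, 127, 401 and 412 CPM against 1209, 1459, 1181 and 1230 CPM (-2.26 ± 0.38, adjusted p = 0.00149). Of 12 small leucine-rich proteoglycans 5 were lower (Fmod, Ogn, Bgn, Lum and Aspn), with a median of -1.26. Of 24 genes of elastic fibres and matrix glycoproteins 9 were lower, with a median of -1.04, among them the microfibril genes Fbn2 (-2.80), Mfap2, Mfap4 (-2.61) and Mfap5, and Postn, Tnc and Cthrc1, which mark matrix under repair. Mfap5 stood at 82.5, 79.4, 102 and 111 CPM against 231 to 266 CPM. Without both libraries the called members were 3 of 26, 1 of 12 and 3 of 24, all lower.

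Several stromal cell genes were lower as well. Of 23 fibroblast and progenitor genes 9 were lower, with a median of -0.73, and these were Pdgfrb, Thy1, Cd34, Pi16, Dpt, Twist1, Clec3b and the pericyte genes Rgs5 and Cspg4. Dpt, dermatopontin, stood at 85.1, 82, 163 and 163 CPM against 308, 587, 315 and 689 CPM (-1.94 ± 0.37, adjusted p = 0.00364). In 21 genes of myofibroblasts and the TGF-beta response only Fap and Tgfb3 were called, both lower, and Tgfb3 was lost when (dep)BCP+MSC 1 or BCP+MSC 2 was left out. Among 17 matrix metalloproteinases and inhibitors Mmp11, stromelysin-3, was higher (1.88) and Mmp23 lower (-1.34), and the call of Mmp11 was lost when (dep)BCP+MSC 1 or BCP+MSC 2 was left out. In this list 1 member was called higher without BCP+MSC 2 and 1 without both libraries. Of the 22 endothelial genes 1 was lower, the apelin receptor Aplnr, at 2.39, 3.4, 3.7 and 9.78 CPM against 31.7, 80.9, 26.5 and 40.3 CPM (-3.20 ± 0.53, adjusted p = 0.0018), while the median of the list was -0.37. Without both libraries 3 of the 23 fibroblast genes were called.

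Genes of bone formation gave few calls. Of 23 osteoblast and mineralization genes 3 were lower (Ibsp, Dmp1 and Smpd3), with a median of -0.48 that was -0.16 without BCP+MSC 2 and 0.04 in the second comparison. Ibsp, bone sialoprotein, stood at 0, 0.241, 0.176 and 0.021 CPM against 0.546, 0.305, 0.497 and 15.4 CPM (-5.03 ± 1.30, adjusted p = 0.0314), a value set by BCP+MSC 4, without which the log2 fold change was -1.81 and the gene was not called. Sp7, the osterix transcription factor, was at or below 0.46 CPM in all 8 libraries and was not called (adjusted p = 0.173). Bglap3, an osteocalcin-related gene, stood at 4.09, 2.46, 1.49 and 1.32 CPM against 0 to 0.314 CPM and was not called (adjusted p = 0.268). Without (dep)BCP+MSC 1 no call remained among the 23 (0 in edgeR, against 1 higher and 3 lower by DESeq2, and 2 higher and 8 lower at an unadjusted p under 0.05, with all libraries). Of 23 BMP pathway genes 3 were lower, Fstl1 (-1.09) and Gdf10 (-1.27) among them, while the median was 0.22. Without BCP+MSC 2, 1 gene was called, lower, and without (dep)BCP+MSC 1 or without both edgeR called 0, where with all libraries DESeq2 called 1 higher and 3 lower and 2 were higher and 5 lower at an unadjusted p under 0.05. Of 20 Wnt genes Sfrp4 and Sfrp1 (-1.82), both secreted antagonists, were lower, with a median of -0.60 that was -0.10 without BCP+MSC 2, and 1 was called with either or both libraries left out. Of 20 chondrocyte genes Prg4, the joint lubricant lubricin, was higher at 51.6, 93, 36.7 and 20.6 CPM against 3.88 to 8.51 CPM (3.03 ± 0.50, adjusted p = 0.00165). In the IGF axis of 15 genes, Igf1 (-1.20), Igf2r (-0.99) and Igfbp6 (-1.26) were lower and Igfbp3 (1.63) and Irs2 (1.36) were higher. Without BCP+MSC 2 the counts were 2 lower and 0 higher, and without (dep)BCP+MSC 1 or without both edgeR called 0 of the 15, where with all libraries 4 were higher and 4 lower both by DESeq2 and at an unadjusted p under 0.05.

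Some genes of growth and biosynthesis were lower. Of 30 cell cycle and replication genes 8 were lower (Mcm2, Mcm3, Mcm5, Top2a, Cdk1, Cdc20, Plk1 and Foxm1), with a median of -1.09, and 25 were lower at an unadjusted p under 0.05. Mcm5, a part of the replicative helicase, stood at 4.49, 6.41, 12 and 15.6 CPM against 30.7, 28.7, 27.4 and 19.9 CPM (-1.46 ± 0.29, adjusted p = 0.00422). This list was sensitive to single libraries, with 2 members called without BCP+MSC 2 and 1 without (dep)BCP+MSC 1, and its median in the second comparison was -0.31. Of 25 genes of the endoplasmic reticulum 5 were lower (Kdelr3, Creb3l1, Kdelr2, Calr and Pdia6), with a median of -0.66, and 1 without both libraries. Of 21 genes of sterol synthesis and uptake 7 were lower, with a median of -0.70, among them the regulator Srebf2, the enzymes Cyp51 and Msmo1 and the carrier Stard4. Cyp51, lanosterol demethylase, stood at 8.27, 15.3, 12.4 and 14.1 CPM against 47.6, 25.9, 28.3 and 35.6 CPM (-1.45 ± 0.28, adjusted p = 0.00364), and 6 of the 21 genes were also called lower in the second comparison. Without both libraries 2 of the 21 were called.

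Few T cell genes passed the test. Of 23 genes of the T cell receptor complex and its coreceptors 1 was called, Cd6, a costimulatory receptor, at 2.49, 6.5, 7.33 and 9.41 CPM against 2.43, 1.83, 2.73 and 3.01 CPM (1.37 ± 0.33, adjusted p = 0.0188), and the median was 0.81. At an unadjusted p under 0.05, 8 of the 23 were higher and 1 lower, and DESeq2 called 4 higher. Cd6 was called in 4 of the 8 fits that left out a library, and not without BCP+MSC 2. Cd3e stood at 2.69, 2.43, 6.55 and 10.2 CPM against 3.49, 1.54, 3.06 and 3.82 CPM (0.88 ± 0.50, adjusted p = 0.323), higher in libraries 4 and 5 and within the range of BCP+MSC in libraries 1 and 2. Icos (1.08, adjusted p = 0.166), Slamf1 (1.51, adjusted p = 0.158) and Cd8b1 (1.49, adjusted p = 0.191) were likewise highest in libraries 4 and 5 and were not called. In the second comparison 11 of the 23 genes were called higher, with a median of 1.44, and Ctla4 (2.16, adjusted p = 0.00568), Icos (1.58), Slamf1 (1.99) and Cd8b1 (2.05) were all called. The difference between the 2 comparisons was not called for any of these genes, as given above for all genes. The 4 (dep)BCP+MSC+RvE1inj libraries had Y-linked genes above Xist, as had libraries 4 and 5 of (dep)BCP+MSC.

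Of 13 tested genes of T helper cells 2 were called higher, Il17f among them, and the median was 0.66, a direction that turned to -0.37 with sex-linked genes as a covariate. Without BCP+MSC 2 the median was 0.39, and 1 member was called with either or both libraries left out. Il17f, a Th17 cytokine, had 25 counts over the 4 toxin libraries, spread over 3 of them, and 0 in BCP+MSC, which against a floor of 3 counts over the group is at least 10.5-fold higher (adjusted p = 0.0279), and was called in 2 of the 8 fits that each left out a library. Ifng (2.10 ± 0.95, adjusted p = 0.213), Il4 (-0.57) and Il13 (-1.43) were not called.

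Antigen-presenting and innate lymphoid genes were lower in part. Of 17 genes of dendritic cells and MHC class II 4 were lower and 12 were lower at an unadjusted p under 0.05, with a median of -1.14. Ccr7, the receptor that guides dendritic cells and T cells to lymph nodes, stood at 1.99, 1.59, 3.33 and 5.31 CPM against 11.3, 11.3, 15 and 13.3 CPM (-2.04 ± 0.36, adjusted p = 0.0019). Flt3, the growth factor receptor of their precursors, stood at 1.3, 0.337, 1.81 and 2.25 CPM against 4.47 to 6.06 CPM (-1.84 ± 0.39, adjusted p = 0.00824). Itgax (CD11c, -1.62) and Siglech of plasmacytoid dendritic cells (-2.73) were the other lower members. The MHC class II genes H2-Aa (-0.97), H2-Ab1 (-1.03) and Cd74 (-1.26) were not called. Of 15 cytotoxic and NK cell genes Ncr1 (-2.37) and Klre1 (-2.27) were lower, and of 14 B cell genes Spib (-1.71) was lower. Called members without both libraries were 1 of 17 (Ccr7), and 0 of 15 and 0 of 14 in edgeR, where DESeq2 with all libraries called 4 and 1, and 6 and 3 were lower at an unadjusted p under 0.05. Both counts were also 0 in edgeR without (dep)BCP+MSC 1 alone. The medians of the cytotoxic and B cell lists were -0.78 and -0.89, but 0.23 and 0.91 in the second comparison, where 1 cytotoxic gene was called higher and Spib had a log2 fold change of 0.02.

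Of 28 monocyte and macrophage genes Mertk, a receptor for the uptake of dead cells, was higher, Cx3cr1 and Timd4 (-2.09) were lower, and the median was -0.29. Mertk stood at 187, 148, 159 and 50 CPM against 36.6, 75.6, 28.6 and 51.7 CPM, with an overlap through (dep)BCP+MSC 5 (adjusted p = 0.0261). Mertk and Timd4 were not called without (dep)BCP+MSC 1 or without both libraries, whereas Cx3cr1 was. Of 17 genes of osteoclasts and giant cells the integrin Itgb3 was lower (-1.24), a call lost without (dep)BCP+MSC 1. Among 17 neutrophil genes the granule genes Camp and Lcn2 were higher and Padi4, which citrullinates histones, was lower. The list median was 0.74, with 8 higher and 3 lower at an unadjusted p under 0.05, and DESeq2 called 6 higher and 1 lower. Camp, cathelicidin, stood at 2.59, 0.94, 3.07 and 14.5 CPM against 0.0153 to 0.356 CPM (4.93 ± 1.15, adjusted p = 0.0173), while the mature neutrophil genes S100a8 (-0.36) and S100a9 (-0.63) were not called. Camp, Lcn2 and Padi4 were not called without both libraries, where the list median was 0.91 and 1 other member was called higher. Fcer1a, a chain of the IgE receptor of mast cells and basophils, stood at 6.88, 13.9, 6.28 and 7.66 CPM against 0.9 to 2.45 CPM (2.64 ± 0.55, adjusted p = 0.00629) and was the called member of 17, though not without both libraries. Of 28 chemokines, Cxcl13, which attracts B cells, was higher, and Cxcl14 was lower (-1.48), though Cxcl14 was not called without (dep)BCP+MSC 1. Cxcl13 stood at 49.1, 94.4, 72.2 and 35.1 CPM against 1.15, 0.183, 3.69 and 10.8 CPM (3.98 ± 0.89, adjusted p = 0.0158). Cxcl13 was called without both libraries (3.68) and in the second comparison (3.13, adjusted p = 0.0205).

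**Figure D5:**
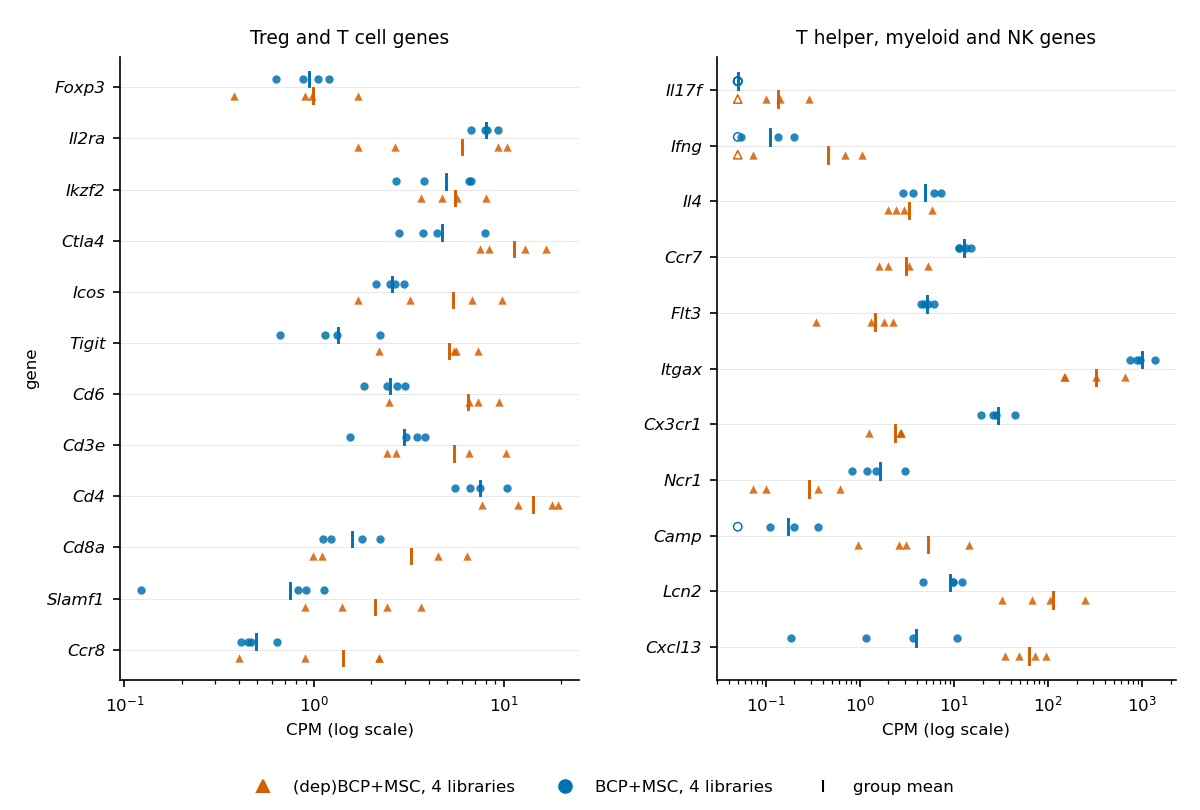
CPM on a log axis (horizontal) in each (dep)BCP+MSC and BCP+MSC library for 23 immune genes (vertical), with open symbols for values, and bars for means, below 0.05 CPM drawn at 0.05. Cxcl13 and Camp separate upward and Cx3cr1, Ccr7 and Flt3 downward, while Foxp3 and Cd3e overlap.

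The remaining lists gave scattered calls or rested on 1 library. Of 20 p53 targets Trp53inp1 (1.97), Sesn1 and Cdkn1a were higher, with a median of 0.02, and without (dep)BCP+MSC 1 or without both edgeR called 0 of the 20, where with all libraries DESeq2 called 3 higher and 3 were higher and 3 lower at an unadjusted p under 0.05. Of 21 genes of the integrated stress response the lipoprotein receptor Vldlr was higher (1.82) and Pycr1, of proline synthesis, was lower (-1.80), and neither was called without both libraries. Of 16 Schwann cell and nerve genes 1 was higher, and Mt4, a metallothionein, was called higher on at most 0.4 CPM, and neither call was kept without (dep)BCP+MSC 1 or without BCP+MSC 2. Of 19 skin and hair genes Krt1, Krt10, Krtdap and Lor were called higher, and all 4 calls rested on (dep)BCP+MSC 1, where Krt10 stood at 133 CPM against 1.75 to 3.19 CPM in the other 7 libraries. Without that library the log2 fold change of Krt10 was -0.30. In the 10 other lists, on plasma cells, interferon response, inflammatory cytokines, complement, adipocytes, immediate early genes, oxidative phosphorylation, hypoxia, erythroid cells and resolvin receptors, edgeR called 0 of 197 members, with 8 higher and 20 lower at an unadjusted p under 0.05, and DESeq2 called 5 higher and 8 lower. The interferon list had mean log2 CPM of 3.27, 3.20, 4.80 and 4.78 in the toxin libraries and 4.08 to 5.14 in BCP+MSC, with libraries 1 and 2 below every BCP+MSC library and libraries 4 and 5 within their range.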

How the data were processed

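RNA of whole constructs was sequenced in 24 samples of 6 groups, of which 8 samples in 2 groups are compared here. The authors made stranded mRNA libraries (TruSeq), sequenced paired ends on a NovaSeq, aligned them to GRCm38 with HISAT2 2.0.5 and counted genes of GENCODE M13 with featureCounts 1.5.2. The submitters' processing notes also name STAR, Picard and DESeq2 1.42.0. The deposited values are raw counts per gene for 51138 genes. Their counting names no strand option, so overlapping, antisense and near-identical genes could share or lose reads. Groups came from the labels. The (dep)BCP+MSC columns carry the numbers 1, 2, 4 and 5 where the labels run from 1 to 4, so columns 4 and 5 entered their group unnumbered. The labels call the samples biological replicates, and p-values measure the spread between these samples.

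Genes with at least 10 counts in all were kept, 30564 of 39183 with any count. All 24 samples entered 1 model of edgeR 4.0.16 in R 4.3.3 (TMM, robust quasi-likelihood test, 1 mean per group, no covariate), with Benjamini-Hochberg adjustment across these genes. It replaced the DESeq2 fit of the study, which served as an alternative. Errors beside log2 fold changes are standard errors of this fit. An exact two-sided permutation test of log2 CPM (prior count 2) over 70 arrangements was run per gene, with 0.0286 as its smallest p. Total counts of the 24 samples ran from 8482701 to 144417743, and floors cover counting error only, since reads of amplified libraries are not independent molecules.

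The comparison and the 48 gene lists (936 of 943 symbols matched) were chosen with earlier results of these data known. Genes named by rule were Foxp3, those the study's text names for this comparison, the 12 higher and 12 lower protein-coding genes with the smallest p past an adjusted p of 0.05 and a log2 fold change of 1 without overlap, up to 4 called members per list or 2 where none was called, and members of the Treg, T cell and T helper lists. All other genes were named after their values were seen. Some genes are counted in their lists but are not reported here. Alternatives were RLE size factors, filterByExpr, no gene filter, a replicate block, sex-linked genes or the muscle score as covariates, the 8 samples alone, DESeq2 on 24 or 8 samples, and each library left out. After seeing the data, 2 libraries left out together and a fit of the 22 numbered libraries without the block were added. Fits were tested on simulated data in which 200 genes were changed by a log2 fold change of 2 in either direction. There edgeR recovered 147 of them and called 2 unchanged genes, and DESeq2 recovered 172 and called 35 unchanged genes. The simulated counts were drawn with edgeR's estimates of the spread. Python 3.11.15 with numpy 2.4.6, pandas 2.3.3 and matplotlib 3.10.9 was used for tables and figures.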

Additional observations from a re-analysis of the deposited data

Results flagged for a closer look

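In 21 of 386 groups of 4 libraries examined for the genes and scores named above, 1 library lay far from the other 3, where chance alone gives about 1 in 20. In BCP+MSC 2 this was the skeletal muscle score, at 3.46 against 8.31 to 8.89 (mean log2 CPM), and, in CPM, Usp2 at 5.85, Slamf1 at 0.122 and Timd4 at 0.9 on the low side and Col18a1 at 463, Cthrc1 at 92.8 and Mt4 at 0.0153 on the high side. Col18a1 lay at 120.4 to 127 CPM and Cthrc1 at 47.3 to 48.3 CPM in the other 3 libraries. In (dep)BCP+MSC 1 the keratinocyte genes Krt10 at 133 CPM, Krtdap at 33.2 CPM and Lor at 46.8 CPM stood far above the other 3, and Dmp1 at 0 CPM and Timd4 at 0 CPM below them. This library is the shallowest, with a floor of 0.354 CPM before TMM normalization, so the values of 0 are not distinguished from low expression.

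In BCP+MSC 4, Ibsp at 15.4 CPM and Fkbp5 at 64 CPM stood above the other 3 libraries, and Dlk1 at 2.03 CPM and Bglap3 at 0 CPM below. In BCP+MSC 3 this held for Per1 at 87.8 CPM, Twist1 at 18.4 CPM and Lor at 0.0331 CPM, all above. In (dep)BCP+MSC 2 Cx3cr1 lay low at 1.25 CPM, and in (dep)BCP+MSC 5 the neutrophil gene S100a8 lay high at 101 CPM against 15.8 to 18 CPM in the other 3. Fkbp5 and Per1 kept their groups apart in spite of these libraries, and the call of Ibsp was lost without BCP+MSC 4. The cause of these single values was not tested.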

How the results depend on the processing

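Against 534 higher and 664 lower genes, the higher count was 848 with filterByExpr, the lower count 1051 with sex-linked genes as a covariate, and the counts were 81 and 76 in a fit of only the 8 samples. DESeq2 gave 1490 and 1405 on all samples and 969 higher on the 8 samples. Leaving out 1 library gave 200 to 759 higher and 267 to 913 lower genes, and leaving out (dep)BCP+MSC 1 and BCP+MSC 2 gave 111 and 174. The 141 shared higher calls of the second comparison were 217 with filterByExpr, 229 with the sex covariate and 420 with DESeq2, and the 174 shared lower calls were 271 with the sex covariate and 508 with DESeq2. The difference of the comparisons gave 0 genes in edgeR and 1 in DESeq2. Krt10 reversed to -0.30 without (dep)BCP+MSC 1 (range -0.30 to 4.31 with single libraries left out) and to -0.35 without both libraries, and Krtdap to -0.24 without both libraries. The replicate number as a block, possible in 22 libraries, gave 998 and 1445 genes, against 1408 and 1837 in the same libraries without the block. The numbers mark different animals. Deviations of the libraries numbered 1 and 2 correlated at -0.05 and -0.12. No other numbers could be compared, so these values cannot decide whether the numbers pair the samples. RLE size factors, no filter and the muscle covariate kept both counts within 1.5 times. The 10.1-fold range of depth limits genes near the floor of the shallowest library. The cause of these shifts was not tested, beyond the smaller number of libraries or genes in some of the fits.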

Other observations

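The imprinted Dlk1-Dio3 region of chromosome 12, which expresses Dlk1 and Rtl1 from the paternal and the noncoding RNAs Meg3, Rian and Mirg from the maternal chromosome, was chosen after its values were seen. All 5 genes were lower in (dep)BCP+MSC. Rian stood at 19.3, 8.07, 42.7 and 39.5 CPM against 112, 292, 117 and 141 CPM (log2 fold change -2.59 ± 0.48, SE, adjusted p = 0.00364). Mirg stood at 0.698, 0.795, 3.37 and 3.44 CPM against 14.1, 21.6, 17.7 and 9.64 CPM (-2.88 ± 0.45, adjusted p = 0.000923). Meg3 stood at 81.4, 36.5, 57.8 and 36 CPM against 148, 333, 202 and 126 CPM (-1.94 ± 0.41, adjusted p = 0.00744). The groups did not overlap in these 3 genes. Rtl1, one of the 12 lower genes with the smallest p-values, had a log2 fold change of -3.16, and Dlk1, an inhibitor of the differentiation of fat cells, of -3.99 ± 0.95 (adjusted p = 0.0203), with an overlap between (dep)BCP+MSC 1 at 2.99 CPM and BCP+MSC 4 at 2.03 CPM. Transcripts of this region overlap or lie close together, and unstranded counts may not separate them. In the second comparison Mirg (-1.64, adjusted p = 0.0279) and Rtl1 (-1.73, adjusted p = 0.0123) were called, and Dlk1 (-2.41), Meg3 (-1.30) and Rian (-1.56) were not.

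Il34, a ligand of the CSF1 receptor that supports macrophages, stood at 5.68, 7.06, 6.04 and 7.41 CPM against 18.9, 19.4, 15.7 and 23.2 CPM (-1.56 ± 0.23, adjusted p = 0.000571). Pdgfb, the growth factor that recruits pericytes, stood at 13.1, 18.2, 26.8 and 36.3 CPM against 114, 60.3, 119 and 79.3 CPM (-1.98 ± 0.31, adjusted p = 0.000934), beside the lower receptor gene Pdgfrb (-0.98) and the pericyte gene Rgs5 (-1.53). Both Il34 and Pdgfb were called in all 8 fits that left out a library and in the second comparison (-1.05 and -1.45).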
